A study of Homo sapiens with 24 samples.

Results

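CEP15, ANXA10, AK5, GJB6 and GALNT14 were 5 genes selected on their signals on the LNCaP-labelled arrays, where they were picked for the deepest falls after the BET inhibitor I-BET762. They were measured by 7 of the 54613 probe sets tested, and 19775 genes in all were named by a probe set with 1 gene symbol. CEP15 and AK5 had 2 probe sets each and the other genes had 1, and each gene was read from its brightest probe set unless stated. Because the falls on the LNCaP-labelled arrays chose the genes, the levels on those arrays are given as a description with no test, and tests were run on the other lines.

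The study asked how BET inhibition changes gene expression in prostate cancer cells. LNCaP and VCaP are androgen-responsive lines from metastases, PC3 is androgen-independent and came from bone, and NCI-H660 (NCIH660 in the labels) is of the neuroendocrine type. Each of the 4 lines was treated for 24 hours with 0.5 µM or 10 µM I-BET762 (GSK525762A in the labels) or with the vehicle DMSO, with 2 biological replicates of each of the 12 groups, 24 arrays in all. No group carried an engineered allele, and each line stands for a single tumour. In bulk RNA, fewer cells with a transcript and less of it per cell cannot be told apart.

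Signals were on the MAS5 scale, on which the authors scaled every array to a target of 500. Array medians ranged from 72.2 to 100.3, and replicate arrays correlated at r = 0.9338 to 0.9528 across probe sets. A mean signal of 100, which 44.35% to 50.05% of probe sets reached on an array, was taken as the floor of measurement. Where one of a pair of groups lay under it, the fold is given as "at least", computed against 100, and where both did no fold is given. The median change of all probe sets on the LNCaP-labelled arrays was 0.149 log2 at 0.5 µM and 0.121 at 10 µM, and after centring each array on its median it was -0.034 and -0.008.

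The labels of 2 lines went against a defining marker. ERG, the ETS factor that VCaP and NCI-H660 express from a TMPRSS2-ERG fusion, had signals of 6883.9 and 7084.5 in vehicle on the LNCaP-labelled arrays, against 16.2 and 20.1 on the VCaP-labelled arrays and 142.7 and 133.9 in NCI-H660. ETV1, the ETS gene rearranged in LNCaP, had signals of 32.5 and 53.4 on the LNCaP-labelled arrays, against 407.8 and 342.8 on the VCaP-labelled arrays. Every statement below therefore names the array label. KLK3, which encodes PSA, averaged 7931.4 on the LNCaP-labelled arrays and 20385.3 on the VCaP-labelled arrays, and was under the floor in PC3 and NCI-H660. CHGA, a neuroendocrine granule protein, averaged 2568.4 in NCI-H660 and 642.6 on the LNCaP-labelled arrays. These labels leave the PC3 and NCI-H660 signals untouched. The tests there share 1 estimate of the spread with all 24 arrays, taken around the mean of each group. Renaming whole groups would not alter it.

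BET proteins bind acetylated histones through their bromodomains and help RNA polymerase II leave the promoter. I-BET762 occupies the bromodomains and displaces them from chromatin, and transcripts that depend on BET-bound enhancers often fall within hours. The 5 genes belong to unrelated families. CEP15 is named as a centrosomal protein. ANXA10 is an annexin, one of the calcium-dependent phospholipid-binding proteins, and is best known from the stomach lining. AK5 is a cytosolic adenylate kinase found mainly in brain, which moves phosphate between adenine nucleotides. GJB6 encodes connexin 30, a gap junction subunit of the inner ear and skin. GALNT14 is a Golgi enzyme that adds the first sugar, N-acetylgalactosamine, in mucin-type O-glycosylation.

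RefSeq promoter sequences, on GRCh38.p14, were matched for 4 of the 5 genes, by symbol. They are shown because genes that fell together on the same arrays had start regions of very different composition. Each line gives the 250 bases before the annotated start, 5′ to 3′ on the strand of the gene, with CG dinucleotides and the TATA box letters in capitals. They lie at chr4:168092287-168092536 on the plus strand (ANXA10), chr1:77281769-77282018 on the plus strand (AK5), chr13:20230979-20231228 on the minus strand (GJB6) and chr2:31138441-31138690 on the minus strand (GALNT14).
ANXA10: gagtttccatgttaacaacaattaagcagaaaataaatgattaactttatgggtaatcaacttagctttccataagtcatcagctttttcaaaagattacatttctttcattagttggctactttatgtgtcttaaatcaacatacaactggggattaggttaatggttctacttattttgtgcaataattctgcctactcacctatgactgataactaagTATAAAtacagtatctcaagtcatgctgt
AK5: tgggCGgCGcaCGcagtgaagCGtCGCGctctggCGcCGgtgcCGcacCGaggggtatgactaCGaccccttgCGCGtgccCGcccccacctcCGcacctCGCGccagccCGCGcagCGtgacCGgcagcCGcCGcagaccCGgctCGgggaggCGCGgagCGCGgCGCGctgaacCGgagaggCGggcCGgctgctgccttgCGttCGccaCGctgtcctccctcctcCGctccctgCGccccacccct
GJB6: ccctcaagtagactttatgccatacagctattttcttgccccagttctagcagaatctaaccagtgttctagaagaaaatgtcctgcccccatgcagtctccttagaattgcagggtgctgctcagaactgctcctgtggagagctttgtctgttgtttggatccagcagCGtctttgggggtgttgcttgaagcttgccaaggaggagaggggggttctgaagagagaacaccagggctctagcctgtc
GALNT14: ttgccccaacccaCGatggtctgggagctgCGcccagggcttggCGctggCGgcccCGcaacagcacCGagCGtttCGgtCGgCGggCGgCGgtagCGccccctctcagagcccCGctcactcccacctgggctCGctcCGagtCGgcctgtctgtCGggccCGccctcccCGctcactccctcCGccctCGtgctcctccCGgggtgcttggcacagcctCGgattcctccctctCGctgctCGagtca

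The ANXA10 sequence had a GC content of 31.2% and 0 CG dinucleotides, and 2.29% of the 27305 RefSeq promoters compared had a lower GC content. AK5 lay at the other end, with a GC content of 77.2% and 39 CG dinucleotides, more than 97.5% of promoters. The GALNT14 sequence resembled that of AK5, with 72.4% GC and 26 CG dinucleotides. GJB6 had 50.8% GC and 1 CG dinucleotide, and the medians over all promoters were 58.0% and 11. Of 6 motifs searched on both strands, the TATA box TATAAA was found in ANXA10 alone, its first base at -29 from the start, and was in 11.1% of all promoters. The E-box CACGTG (in 6.49% of promoters), the AP-1 site TGANTCA (6.6%), the ETS core CCGGAA (14.8%), the forkhead core TGTTTAC (2.98%) and the GATA site AGATAA (9.37%) were not found in these 4 windows.

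**Figure D1:**
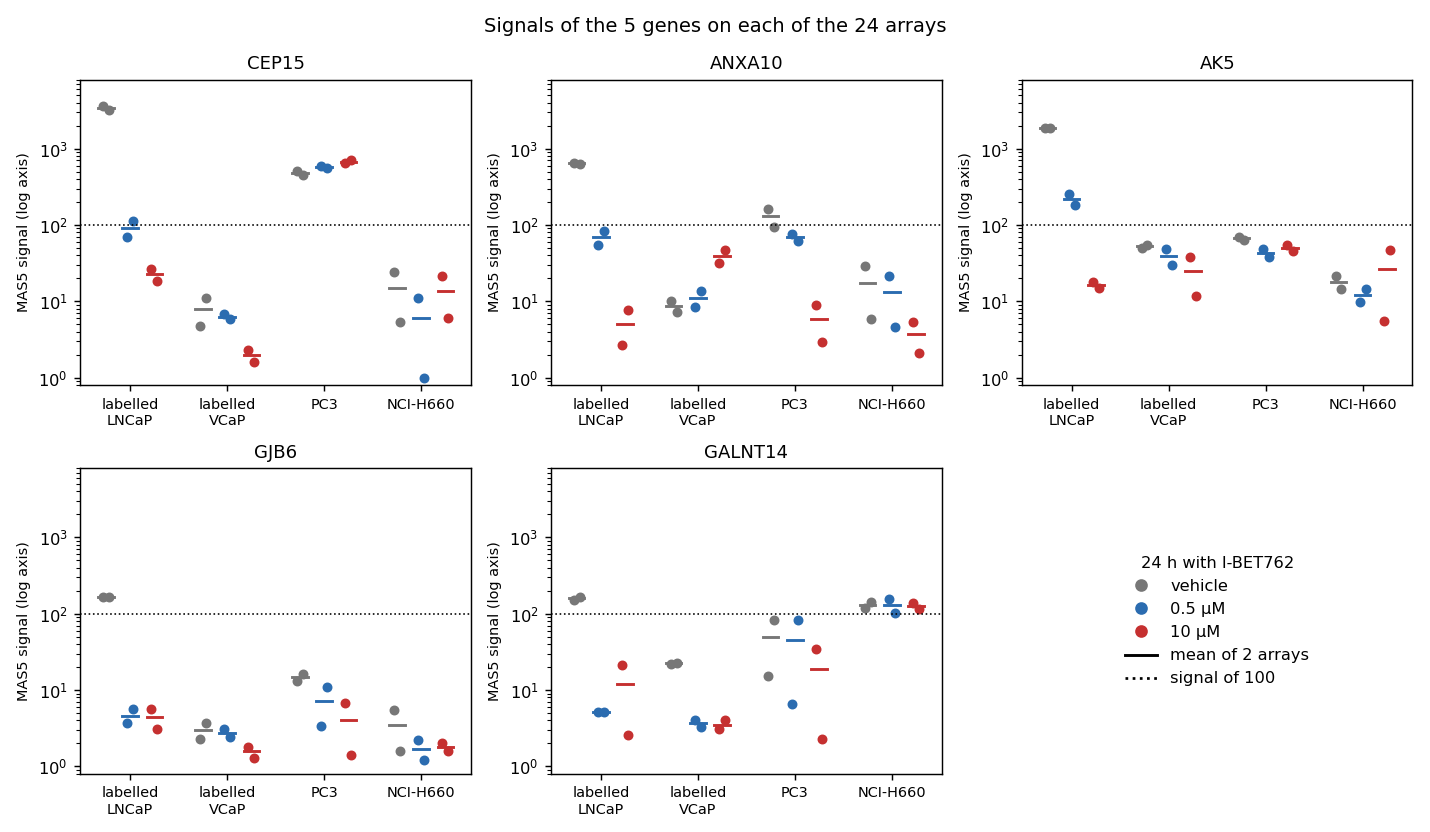
MAS5 signal of each gene (log axis) on the 24 arrays, by line and, from left to right within a line, vehicle, 0.5 µM and 10 µM; each point is 1 array, each bar the mean of its 2 arrays, with the floor of 100 dotted. All 5 genes were above the floor in vehicle on the LNCaP-labelled arrays and, except for AK5 at 0.5 µM, averaged under it in both treated groups there, while CEP15 stayed between 454.5 and 712.3 in PC3.

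CEP15 was the brightest of the 5 genes in vehicle on the LNCaP-labelled arrays. Its fall there had the highest bound of the 5, and depths under the floor cannot be ordered. On the LNCaP-labelled arrays its signals were 3582.4 and 3206.0 in vehicle, 69.1 and 113.5 at 0.5 µM and 26.8 and 18.2 at 10 µM. Every treated array lay far below both vehicle arrays, and the 10 µM arrays lay below the 0.5 µM arrays. The treated means of 91.3 and 22.5 were under the floor, so the signal fell at least 33.9-fold at either concentration, with fitted log2 changes of -5.26 at the lower and -7.26 at the higher concentration. These changes ranked 3 and 1 among the falls of all probe sets. Counted against the floor, the 0.5 µM fall ranked 1 and the 10 µM fall 5 among the 24505 probe sets that averaged 100 or more in vehicle.

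In PC3, CEP15 was measured above the floor on every array and did not pass the test at either concentration. The PC3 signals were 507.0 and 454.5 in vehicle, 587.8 and 550.6 at 0.5 µM and 639.8 and 712.3 at 10 µM. All treated arrays lay above both vehicle arrays, by a small margin. The mean was 569.2 ± 26.3 at 0.5 µM and 676.1 ± 51.3 at 10 µM, against 480.7 ± 37.1 in vehicle (SD, n = 2 each), or 1.18-fold and 1.41-fold higher. limma gave log2 changes of 0.25 (SE 0.93, adjusted p = 0.954) and 0.49 (SE 0.93, adjusted p = 0.844). The standard error came from all 12 groups, including those under the floor, and with PC3 fitted alone the SE at 10 µM was 0.17 and the limma adjusted p was 0.288. Thus CEP15 averaged 676.1 in PC3 and 22.5 on the LNCaP-labelled arrays at 10 µM, against 480.7 and 3394.2 in vehicle.

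On the VCaP-labelled arrays and in NCI-H660, CEP15 was under the floor in every group, at 1.0 to 24.4. In vehicle it was lower on the VCaP-labelled arrays than in PC3 by at least 4.81-fold (7.9 against 480.7, limma adjusted p = 0.000146), and lower in NCI-H660 than in PC3 by the same bound (14.8 against 480.7, adjusted p = 0.000305). In these comparisons 9.78% of all probe sets were called lower on the VCaP-labelled arrays, and 10.4% were called lower in NCI-H660. The order of vehicle levels was therefore the LNCaP-labelled arrays, PC3, and then both other lines together under the floor.

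AK5 was the only one of the 5 genes still above the floor at 0.5 µM on the LNCaP-labelled arrays. Its signals there were 1865.3 and 1842.1 in vehicle, 253.4 and 184.2 at 0.5 µM and 18.0 and 14.9 at 10 µM. The 3 groups did not overlap. The mean at 0.5 µM was 218.8 ± 48.9, against 1853.7 ± 16.4 in vehicle (SD, n = 2 each), a measured fold of 8.47 lower that left 11.8% of the vehicle signal. At 10 µM the mean of 16.5 was under the floor, at least 18.5-fold lower than vehicle, and the fitted log2 changes were -3.10 and -6.82. The ranks among all probe sets were 104 at 0.5 µM and 4 at 10 µM, or 11 and 17 counted against the floor. AK5 was under the floor on all 18 arrays of the other lines, at 5.6 to 69.6.

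The second probe sets of AK5 and CEP15 were dimmer in vehicle on the LNCaP-labelled arrays and gave smaller fitted changes there. The second AK5 probe set had signals on the LNCaP-labelled arrays of 561.3 and 607.7 in vehicle, 57.2 and 129.2 at 0.5 µM and 29.0 and 11.5 at 10 µM. This gave a fall of at least 5.85-fold at either concentration, with fitted log2 changes of -2.76 and -5.00. For CEP15 the signals were 123.4 and 109.8 in vehicle, 50.6 and 37.7 at 0.5 µM and 56.2 and 17.5 at 10 µM. That probe set was dim, so its fall was at least 1.17-fold, with fitted log2 changes of -1.41 and -1.89, and its rank was 2001 at 0.5 µM and 1849 at 10 µM. In PC3 it was under the floor in all 3 groups, where the brighter CEP15 probe set averaged 480.7 to 676.1. The depth given for CEP15 therefore rests on 1 probe set.

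**Figure D2:**
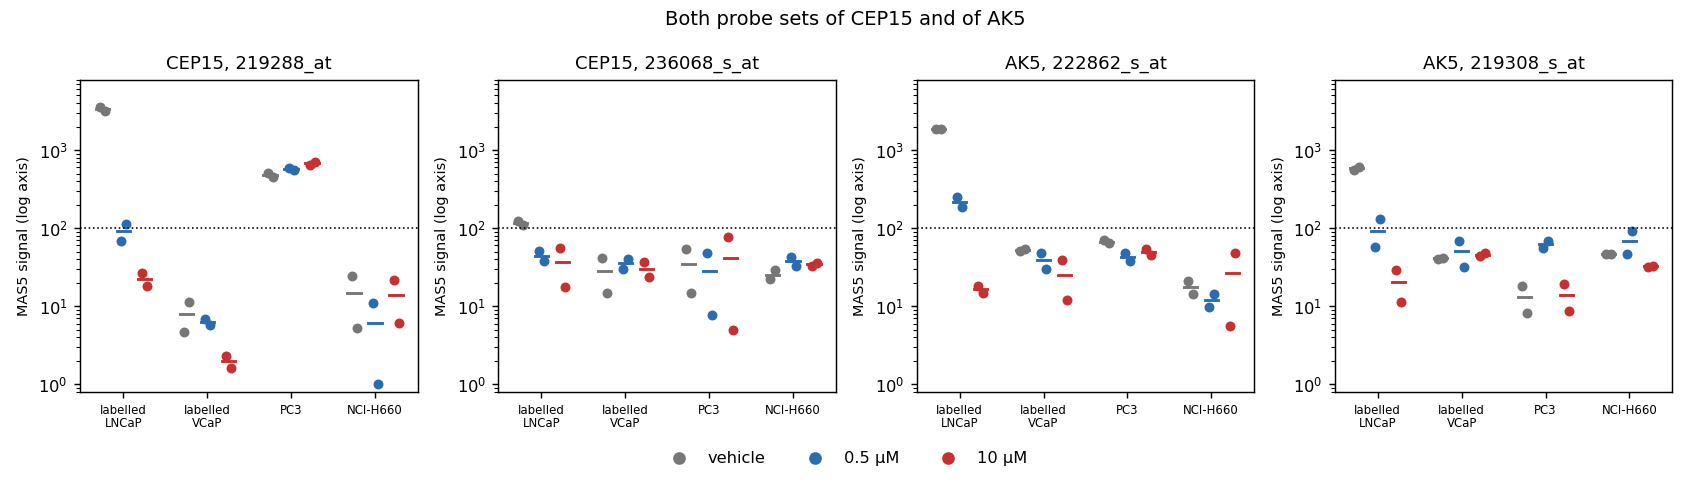
MAS5 signal (log axis) of the 2 probe sets of CEP15 and the 2 of AK5 on the 24 arrays; each point is 1 array, each bar the mean of its 2 arrays, with the floor of 100 dotted. Both AK5 probe sets fell on the LNCaP-labelled arrays, while the second CEP15 probe set was near the floor in vehicle (123.4 and 109.8) and lacked the PC3 signal.

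ANXA10 was under the floor at both concentrations on the LNCaP-labelled arrays. Its signals there were 651.3 and 629.6 in vehicle, 54.7 and 83.2 at 0.5 µM and 2.7 and 7.6 at 10 µM. The groups did not overlap and both treated means, 69.0 and 5.1, were under the floor, a fall of at least 6.4-fold. The fitted log2 changes of -3.25 and -7.15 ranked 75 and 2 among all probe sets, and the 10 µM signals were close to background. Counted against the floor, the ranks were 29 and 156.

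ANXA10 was also the only one of the 5 genes called in another line. In PC3 its signals were 164.3 and 95.2 in vehicle, 75.4 and 61.7 at 0.5 µM and 8.9 and 2.9 at 10 µM. Every treated array was below both vehicle arrays, and 1 of the 2 vehicle arrays was itself under the floor. At 10 µM the mean was 5.9, against 129.8 ± 48.8 in vehicle (SD, n = 2), at least 1.3-fold lower with a fitted log2 change of -4.62 (SE 0.85, limma adjusted p = 0.00311). At 0.5 µM the mean of 68.6 gave a log2 change of -0.87 (limma adjusted p = 0.722), which did not pass. The call at 10 µM was lost without PC3 vehicle replicate 1, when the log2 change was -4.22 and the remaining vehicle array was under the floor. It was also lost with PC3 fitted alone, when the adjusted p was 0.104.

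In PC3 at 10 µM, 1.7% of all probe sets were called lower, and ANXA10 was 1 of the 2 genes of the 5 that reached the floor there. At 0.5 µM, where 0.432% of probe sets were lower, 0 of those 2 were called. None of the 5 genes reached the floor on the VCaP-labelled arrays, where 1.6% of probe sets were lower at 0.5 µM and 3.31% at 10 µM, so none could be called. Only GALNT14 reached it in NCI-H660, where limma called 0 of the 5 genes, beside 0.386% of all probe sets lower at 0.5 µM and 2.85% at 10 µM. At an unadjusted p under 0.05 and without the floor, the counts at 10 µM were 2 lower in PC3 (ANXA10 and GJB6), 1 higher on the VCaP-labelled arrays (ANXA10) and 1 lower in NCI-H660 (ANXA10), and 0 in each at 0.5 µM. Except for ANXA10 in PC3, these lay between means under the floor. The shares above are for calls, and no share over all probe sets was counted at this looser threshold.

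Among vehicle groups, ANXA10 was lower on the VCaP-labelled arrays than in PC3 (8.7 against 129.8, at least 1.3-fold, limma adjusted p = 0.00262) and lower in NCI-H660 than in PC3 (17.2 against 129.8, at least 1.3-fold, adjusted p = 0.00673). Both calls were lost without PC3 vehicle replicate 1, at log2 differences of -3.47 and -2.88, and that in NCI-H660 also without NCI-H660 vehicle replicate 2, at -2.13. On the VCaP-labelled arrays the ANXA10 signals were 10.1 and 7.3 in vehicle, 8.5 and 13.6 at 0.5 µM and 32.2 and 46.5 at 10 µM. All of these were under the floor, so the higher values at 10 µM give no fold. limma's test of the change at 10 µM on the VCaP-labelled arrays minus that in PC3 passed (6.79 log2, SE 1.20, adjusted p = 0.0045), where 1.91% of probe sets were called higher. Of the 4 group means behind it 3 were under the floor, so it gives no size for a difference in response. The call was lost without PC3 vehicle replicate 1, at 6.39. In NCI-H660 the signals ranged over 2.1 to 28.6.

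GJB6 and GALNT14 were dim genes whose signal was already under the floor at the lower concentration. GJB6 had signals on the LNCaP-labelled arrays of 163.0 and 164.0 in vehicle, 3.7 and 5.6 at 0.5 µM and 5.6 and 3.1 at 10 µM. The treated groups overlapped each other and lay far below vehicle. With a vehicle mean of 163.5, the floor allowed only a fall of at least 1.63-fold, although the fitted log2 changes of -5.17 and -5.29 ranked 4 and 23 among all probe sets. Counted against the floor, the ranks were 2091 and 3920. In the other 3 lines GJB6 was under the floor on every array, at 1.2 to 16.0.

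GALNT14 had signals on the LNCaP-labelled arrays of 151.2 and 166.2 in vehicle, 5.1 and 5.2 at 0.5 µM and 21.3 and 2.6 at 10 µM. Both treated groups were under the floor and overlapped each other. The fall from the vehicle mean of 158.7 was at least 1.59-fold at either concentration, with fitted log2 changes of -4.93 and -4.41 and ranks of 6 and 69, or 2330 and 4253 against the floor.

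GALNT14 was the only one of the 5 genes measured above the floor in NCI-H660, where it did not pass the test. Its NCI-H660 signals were 120.2 and 142.3 in vehicle, 155.4 and 102.9 at 0.5 µM and 139.0 and 116.2 at 10 µM. The 3 groups overlapped fully. The means were 129.2 at 0.5 µM and 127.6 at 10 µM, against 131.3 ± 15.6 in vehicle (SD, n = 2), with log2 changes of -0.05 (SE 1.30, limma adjusted p = 0.997) and -0.04 (limma adjusted p = 0.991). The sign of these near-zero values turned under quantile normalization and median centring, and the difference from the LNCaP-labelled arrays was not tested because those arrays chose the gene. In vehicle GALNT14 averaged 158.7 on the LNCaP-labelled arrays, 131.3 in NCI-H660, 49.5 in PC3 and 22.3 on the VCaP-labelled arrays, the last 2 under the floor. The log2 difference between NCI-H660 and the VCaP-labelled arrays, 2.55, was not called (limma adjusted p = 0.15), nor was that between NCI-H660 and PC3, 1.87 (limma adjusted p = 0.299), where 14.3% and 13.8% of all probe sets were called higher in NCI-H660. In PC3 its replicate arrays stood far apart, at 15.2 and 83.7 in vehicle, 6.5 and 82.9 at 0.5 µM and 34.9 and 2.3 at 10 µM.

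**Figure D3:**
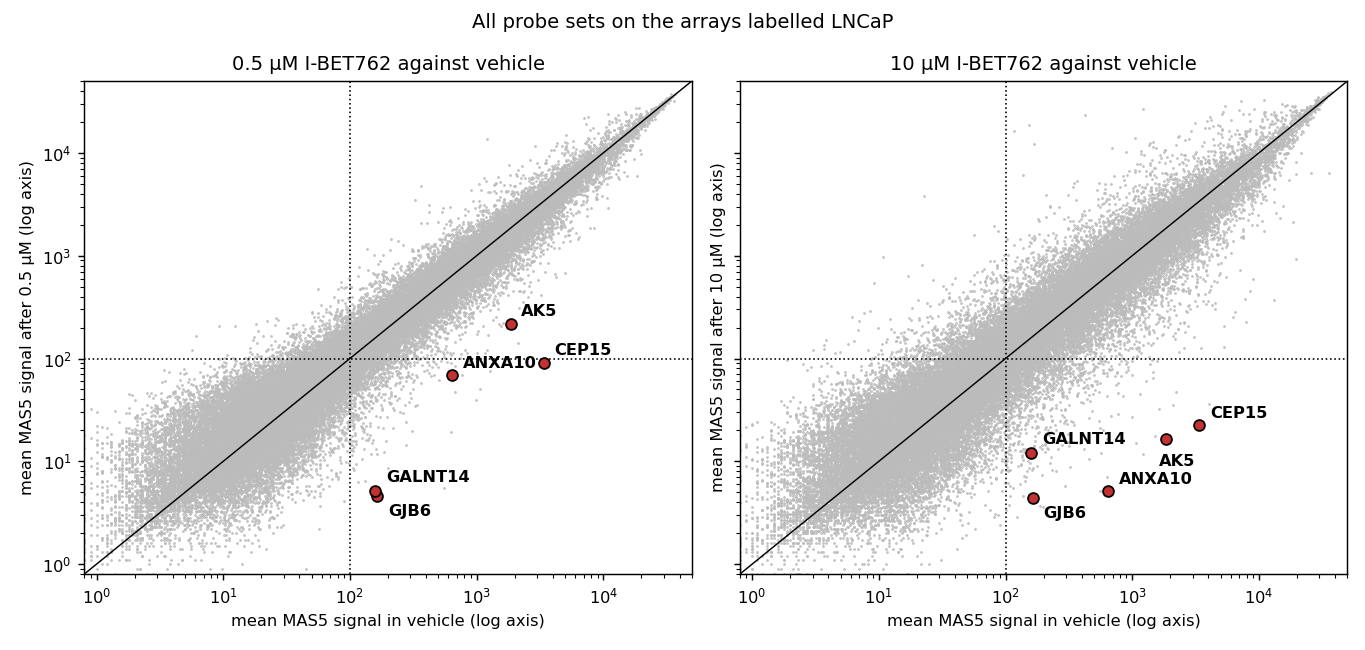
Mean MAS5 signal of every probe set on the LNCaP-labelled arrays, treated (vertical, log axis) against vehicle (horizontal, log axis), at 0.5 µM on the left and 10 µM on the right; values under 0.8 are drawn at 0.8, the solid line marks equal signal and dotted lines mark the floor of 100. CEP15 and AK5 lay far below the line of equal signal at 10 µM (22.5 and 16.5), while GJB6 and GALNT14 started just above the floor, at 163.5 and 158.7.

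Loss below the floor was not limited to these genes. Of the 24505 probe sets that averaged 100 or more in vehicle on the LNCaP-labelled arrays, 1164 (4.75%) averaged under 100 at 0.5 µM, 1809 (7.38%) at 10 µM and 944 (3.85%) at both. CEP15, ANXA10, GJB6 and GALNT14 were under it at both concentrations and AK5 at 10 µM only. By vehicle level, CEP15 stood above 94.7% of probe sets on the LNCaP-labelled arrays, AK5 above 90.4%, ANXA10 above 79.6%, GJB6 above 62.6% and GALNT14 above 62.2%.

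The genes whose levels most resembled each of the 5 over the 12 group means, with signals under the floor set to 100, are named as a description. Only genes with at least 3 groups at 100 or more were compared, 13208 or 13207 for each of the 5 genes. The points share lines and, for most genes, a single high group, so r has no test. CEP15 was most like CCDC169 (r = 0.981), the platelet chemokine PF4 (0.957) and ASB9 (0.947). Each of these had its 2 highest vehicle levels on the LNCaP-labelled arrays and in PC3, for ASB9 at 754.2 and 576.6. ANXA10 was most like the growth hormone releasing hormone receptor GHRHR (0.989), the keratin KRT2 (0.983) and the drug efflux transporter ABCG2 (0.979). AK5 was most like the fetal serum protein AFP (0.996), the endoplasmic reticulum protein ERP27 (0.996) and ABCG2 (0.985), and GJB6 most like GHRHR (0.995), ABCG2 (0.991) and ERP27 (0.982). GALNT14 was most like TUNAR (0.974), CAMKV (0.949) and the microfibril protein FBN1 (0.928), with TUNAR at 278.8 on the LNCaP-labelled arrays and 239.9 in NCI-H660 in vehicle. At 10 µM TUNAR averaged 28.3 on the LNCaP-labelled arrays and AFP 101.1, against 278.8 and 560.9 in vehicle.

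The relatives of the 5 genes were called lower at shares near those over all genes on the LNCaP-labelled arrays. They were called higher at larger shares, which depended on the probe set read. Of 79 measured genes in the 5 families, without the 5 themselves, 5 (6.33%) were called higher and 2 (2.53%) lower at 0.5 µM on the LNCaP-labelled arrays, and 12 (15.2%) higher and 6 (7.59%) lower at 10 µM. Over all 19775 genes, 2.3% were called higher and 2.71% lower at 0.5 µM and 6.31% higher and 6.74% lower at 10 µM, by their brightest probe sets. Read from the probe set of largest variance, the relatives called higher numbered 3 at 0.5 µM and 6 at 10 µM. The share over all genes was not counted by that rule.

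Of 34 other genes named for centrosomal proteins, 3 rose and 0 fell at 0.5 µM on the LNCaP-labelled arrays, and 8 rose and 0 fell at 10 µM. At an unadjusted limma p under 0.05, 12 were higher and 3 lower at 0.5 µM, and 18 higher and 3 lower at 10 µM. No share over all genes was counted at this threshold. The median log2 change of the list was 0.30 and 0.49, against 0.09 and 0.06 over all genes. CEP85L averaged 135.6 in vehicle, 357.0 at 0.5 µM and 899.8 at 10 µM (limma adjusted p = 0.00292 and 4.36e-06). CEP68, which links the paired centrioles, averaged 166.6, 445.7 and 903.7 in the same order (adjusted p = 2.57e-05 and 4.81e-08). CEP19, a ciliary protein, averaged 131.7, 336.7 and 379.7, while its other probe set gave log2 changes of 0.72 and 0.87. CEP97 rose at 10 µM to 120.1, against 26.3 in vehicle, at least 1.2-fold. Brighter CEP97 probe sets, of the _x_at type used last, averaged 255.9 and 136.5 in vehicle. Their log2 changes at 10 µM were 1.12 and 0.13. Without LNCaP vehicle replicate 1, 5 of these genes were called higher and 1 lower at 10 µM. On the VCaP-labelled arrays 0 were higher and 4 lower at 0.5 µM (0.748% and 2.5% over all genes), and 0 higher and 3 lower at 10 µM (2.95% and 5%), with median log2 changes over the list of -0.35 and 0.07. By limma's unadjusted p under 0.05, 1 was higher and 13 lower at 0.5 µM, and 5 higher and 8 lower at 10 µM. The 4 genes called lower at 0.5 µM became 2 without VCaP 0.5 µM replicate 2. CEP55, which acts in the last step of cell division, averaged 2275.2 in vehicle there, 467.8 at 0.5 µM and 764.0 at 10 µM, and CEP152, of centriole duplication, 530.8, 108.9 and 106.2. The difference between the lines was not tested.

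Of 18 other GalNAc transferases, 8 reached the floor on the LNCaP-labelled arrays. limma called 0 of them at 0.5 µM (4 at an unadjusted p under 0.05), and at 10 µM 1 rose and 2 fell, with a median log2 change over the list of -0.19. GALNT7, which acts on already glycosylated peptides, fell at 10 µM, to 1140.3 against 4558.4 in vehicle (log2 change -1.99, limma adjusted p = 9.64e-08). GALNT16 fell at least 2.67-fold, to 82.4 against 266.7 (adjusted p = 0.0483), while its dimmer probe sets gave smaller log2 changes of -0.84 and -0.49. GALNT10 rose 2.40-fold, to 488.8 against 203.8 (adjusted p = 5e-05). The 2 that fell became 1 without any one of the LNCaP vehicle or LNCaP 10 µM arrays. At 0.5 µM 1 was called lower without LNCaP vehicle replicate 1 or without LNCaP 0.5 µM replicate 1.

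AK4, the mitochondrial adenylate kinase, fell with AK5. It averaged 1558.1 in vehicle, 519.2 at 0.5 µM and 270.6 at 10 µM on the LNCaP-labelled arrays, log2 changes of -1.59 (limma adjusted p = 3.81e-06) and -2.52 (1.06e-08). Its 4 probe sets gave log2 changes between -1.27 and -2.18 at the lower and between -2.52 and -3.47 at the higher concentration. Unlike AK5 it was expressed in other lines, and at 10 µM it fell 2.27-fold in PC3 (1556.5 against 3534.8) and 2.05-fold in NCI-H660 (1331.3 against 2723.7). When genes were read from their probe set of largest variance, 0 relatives, AK4 included, were called lower in PC3 or NCI-H660 at 10 µM. AK1, the cytosolic form of muscle and brain, fell 2.39-fold at 10 µM on the LNCaP-labelled arrays, to 1121.2 against 2681.3. Its other, dimmer probe set gave a log2 change of -0.71 there, against -1.26. AK9 rose, to 353.6 at 0.5 µM and 369.6 at 10 µM against 129.0 in vehicle, while another of its probe sets gave log2 changes of 0.59 and 0.47. In all, 1 of the 5 other adenylate kinases rose and 1 fell at 0.5 µM, and 1 rose and 2 fell at 10 µM.

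Of 10 other annexins, 7 of them at the floor or above, ANXA4 alone was called on the LNCaP-labelled arrays, lower at both concentrations. It averaged 449.5 in vehicle, 203.2 at 0.5 µM and 139.9 at 10 µM (limma adjusted p = 0.00019 and 1.69e-06). Of 12 other connexins, of which 5 reached the floor, 1 rose and 0 fell at 0.5 µM (0 lower at an unadjusted p under 0.05), and 2 rose and 1 fell at 10 µM. GJB1, connexin 32 of liver and nerve sheath, fell 5.03-fold at 10 µM, to 248.7 against 1251.9 (limma adjusted p = 0.0228), and this call was lost without LNCaP vehicle replicate 2 or without LNCaP 10 µM replicate 1, which left 0 connexins lower. GJA3, the lens connexin, rose 3.81-fold at 0.5 µM (487.5 against 127.9, adjusted p = 0.00861) and 6.04-fold at 10 µM (772.7 against 127.9, adjusted p = 0.000465). GJC1 rose at 10 µM to 101.0, against 8.8 in vehicle, at least 1.01-fold, just at the floor, while its other 3 probe sets stayed under the floor. Without LNCaP 10 µM replicate 2, 1 connexin was called higher at 10 µM.

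In the other lines fewer of the 79 relatives were called. At 10 µM there were 1 higher and 5 lower on the VCaP-labelled arrays (2.95% and 5% over all genes), 3 higher and 2 lower in PC3 (2.23% and 2.07%), and 1 higher and 2 lower in NCI-H660 (2% and 3.68%). CEP41, a ciliary protein, fell in all 3, to 612.5 against 1316.5, to 458.4 against 1335.0 and to 364.3 against 1346.7, in that order of lines. With each gene read from its probe set of largest variance, 0 of the relatives, CEP41 included, were called lower in PC3 or NCI-H660.

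**Figure D4:**
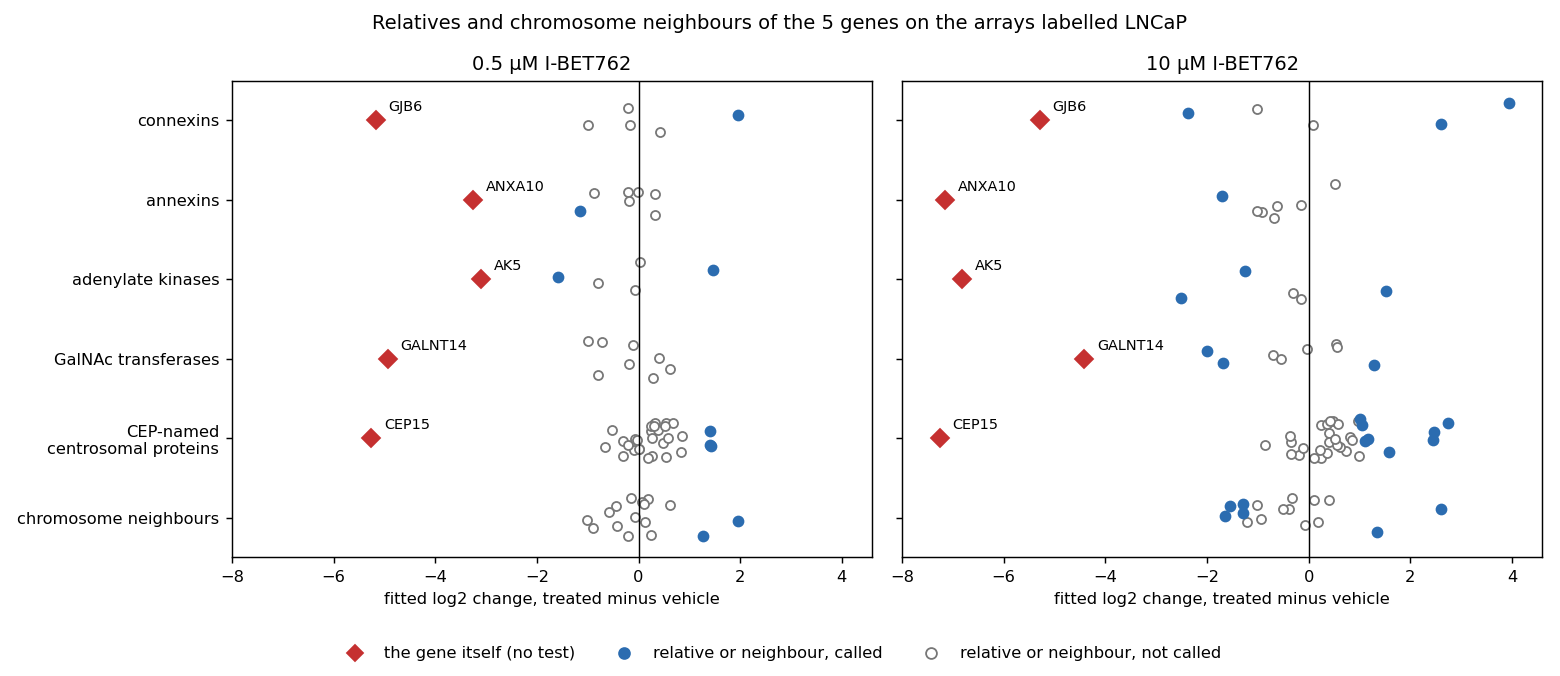
Fitted log2 change, treated minus vehicle, on the LNCaP-labelled arrays at 0.5 µM (left) and 10 µM (right) for each family and for the chromosome neighbours; circles are genes that reached the floor, filled where called, and diamonds are the 5 genes themselves, drawn with no test. The 5 diamonds lay between -3.10 and -5.26 at 0.5 µM and between -4.41 and -7.26 at 10 µM, and the genes were picked for these falls.

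The genes beside the 5 on their chromosomes were also tested. For the nearest 2 measured protein-coding genes on each side, 20 in all, limma called 2 higher and 0 lower at 0.5 µM on the LNCaP-labelled arrays, and 2 higher and 4 lower at 10 µM, beside the shares over all genes given above (2.3% and 2.71% at 0.5 µM, 6.31% and 6.74% at 10 µM). At 0.5 µM 1 was lower at an unadjusted p under 0.05. The median log2 change was 0.07 at 0.5 µM and -0.45 at 10 µM, against 0.09 and 0.06 over all genes. Beside GJB6 on chromosome 13, GJA3 rose as given above and IFT88, of ciliary transport, rose 2.43-fold at 0.5 µM and 2.59-fold at 10 µM, to 1070.4 and 1139.7 against 440.8 in vehicle (limma adjusted p = 0.000145 and 2.29e-05). GJB2, connexin 26, averaged 166.2 and 96.9, against 197.5 in vehicle (adjusted p = 0.943 and 0.55), and CRYL1 941.1 at 10 µM, against 1233.8 (adjusted p = 0.0819, fold under 2).

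Beside AK5 on chromosome 1, PIGK, which attaches proteins to their lipid anchor, fell 2.47-fold at 10 µM, to 1226.9 against 3032.1 (limma adjusted p = 7.03e-06). ZZZ3 (1827.7 against 1934.5), USP33 (3813.7 against 3548.0) and ST6GALNAC5 (166.3 against 318.9) were not called. Beside CEP15 on chromosome 3, CADPS, of vesicle priming, fell 2.91-fold at 10 µM, to 1087.2 against 3162.3 (limma adjusted p = 0.0803). Its other probe sets gave log2 changes between -0.47 and -1.66 at 10 µM, against -1.54 for this one. FHIT (119.6 against 151.0) and PTPRG (174.4 against 400.2) were not called, and FEZF2 was under the floor. Beside ANXA10 on chromosome 4, SPOCK3 fell 3.14-fold, to 147.5 against 463.8 (limma adjusted p = 0.0932). Its other probe sets gave log2 changes between -0.95 and -1.48 at 10 µM, against -1.64 for this one. The interferon-induced helicase DDX60 fell at least 1.3-fold, to 52.5 against 130.3 (limma adjusted p = 0.0105). DDX60L and TLL1 were under the floor. Beside GALNT14 on chromosome 2, LCLAT1 (2290.0 against 3252.1), EHD3 (645.2 against 485.0) and CAPN13 (102.5 against 85.4) were not called, and CAPN14 was under the floor. The count of 4 neighbours lower at 10 µM became 1 without LNCaP vehicle replicate 1, and 2 without LNCaP vehicle replicate 2, LNCaP 10 µM replicate 1 or LNCaP 10 µM replicate 2.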

How the data were processed

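Biotin-labelled RNA was hybridised to 24 Affymetrix U133 Plus 2.0 arrays. The deposited table holds the MAS5 intensity of each probe set, not logged, which the authors had brought to a common target of 500. Of 54675 probe sets, 62 controls were left out. The platform table gave 41091 probe sets 1 symbol and 1801 several, and left 11721 unnamed.

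The log2 signals of all arrays entered 1 limma model of 12 groups (limma 3.58.1, R 4.3.3), moderated by eBayes without a trend, on 12 residual and 1.29 prior degrees of freedom. A call needed a Benjamini-Hochberg adjusted p under 0.1 over all probe sets and a fold over 2. It also needed, in either group, a mean of 100 or more, which stands in for the study's detection calls. The fold of a call was that of the fitted log2 change, with signals under 100 left as they were. A called change can therefore have a bound under 2-fold, as for ANXA10 in PC3. A gene was read from its brightest probe set, _x_at sets last. With 2 arrays a group, precision is limited by their number. The fit was tested on simulated data, with changes placed only in probe sets well above the floor in PC3. Changes that start near the floor, as for ANXA10 in PC3, were not covered.

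The 5 genes and the lists were chosen with earlier results of these data known. Lists of relatives held 20 connexins, 12 annexins, 8 adenylate kinases, 19 GalNAc transferases and 37 CEP-named genes before matching, without the 5 genes. Named were the 5 genes, up to 4 called relatives per list with the largest change on the LNCaP-labelled arrays, all neighbours, line markers, and 3 most similar genes each; relatives named for other lines were chosen after their values were seen. Alternatives were other normalizations, an intensity trend, the replicate block, other floors, another probe set rule, each line alone, and leaving out each array; fits of the 3 vehicle groups or 3 lines alone were added after seeing the data.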

Additional observations from a re-analysis of the deposited data

Results flagged for a closer look

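The fitted change of ANXA10 at 10 µM I-BET762 passed limma's test of a difference between lines: the log2 change on the VCaP-labelled arrays minus that in PC3 was 6.79 (SE 1.20, limma adjusted p = 0.0045). The change was 2.17 on the VCaP-labelled arrays, where both groups were under the floor (39.4 at 10 µM against 8.7 in vehicle), and -4.62 in PC3 (5.9 against 129.8). With 3 of the 4 group means under the floor, the value gives no size for a difference in response, and only the fall in PC3 has a bound, at least 1.3-fold. In this comparison 1.91% of all probe sets were called higher. Without PC3 vehicle replicate 1 the difference was 6.39 and no longer called, because no group mean then reached 100.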

How the results depend on the processing

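No setting gave CEP15 a called change in PC3. With a floor of 200, the ANXA10 values stayed at -4.62 (PC3 at 10 µM), -3.86 and -3.27 (vehicle, VCaP-labelled arrays and NCI-H660 against PC3) and 6.79 (response difference), but none was called, since no mean reached the floor; with PC3 alone, -4.62 was not called either. The GALNT14 change in NCI-H660 turned to 0.02 at 0.5 µM and 0.14 at 10 µM with quantile normalization, and to 0.01 and 0.14 with median centring. Its vehicle difference between NCI-H660 and the VCaP-labelled arrays, 2.55, was called when the 3 vehicle groups were fitted alone (limma adjusted p = 0.095), and without any one PC3 array at 0.5 µM or 10 µM (adjusted p = 0.0885 to 0.0989). On the LNCaP-labelled arrays, the GALNT14 fall at 0.5 µM was -5.22 with quantile normalization and -5.12 with centring, and the other probe sets gave -1.41 and -1.89 (CEP15) and -2.76 and -5.00 (AK5).

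The number of the 5 genes called lower in PC3 at 10 µM, 1, became 0 with a floor of 200 or PC3 alone and 2 with no floor. With the largest-variance probe set, relatives called higher numbered 3 at 0.5 µM and 6 at 10 µM on the LNCaP-labelled arrays and 2 in PC3 at 0.5 µM, and 0 were lower at 10 µM in PC3 and NCI-H660. With no floor, 1 (0.5 µM) and 2 (10 µM) were higher on the VCaP-labelled arrays. Centring gave 0 higher there at 10 µM, and 3 higher and 1 lower in NCI-H660, where quantile normalization gave 2 higher. Each line alone gave 1 lower at 0.5 µM on the LNCaP-labelled arrays, and in PC3 0 higher at either concentration and 1 lower at 10 µM.

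Leaving out each array gave ranges of -5.43 to -3.81 for ANXA10 in PC3 at 10 µM, -4.25 to -3.47 and -4.42 to -2.13 for its vehicle differences, and 5.98 to 7.60 for its response difference. GALNT14 in NCI-H660 ranged from -0.35 to 0.25 at 0.5 µM (0.07 without vehicle replicate 2, 0.25 without 0.5 µM replicate 2) and from -0.17 to 0.09 at 10 µM (0.08 without vehicle replicate 2, 0.09 without 10 µM replicate 2), and its vehicle difference from 2.43 to 2.67. The 5 genes called lower in PC3 at 10 µM numbered 0 to 1. Relatives higher numbered 1 to 2 on the VCaP-labelled arrays at 10 µM and 0 to 1 in PC3 at 0.5 µM, and relatives lower 2 to 5 on the VCaP-labelled arrays at 0.5 µM and 1 to 2 in NCI-H660 at 10 µM. GALNT14 at 10 µM on the LNCaP-labelled arrays ranged from -5.93 to -2.89.

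The labels link same-numbered replicates by their number alone, and their deviations correlated at -0.06 to 0.08 within lines. The replicate block was a term for replicate number common to all lines. With it, ANXA10 in PC3 at 10 µM was -4.62 and kept its call, and no other listed call changed. Pairing within each line was not fitted. The cause of a change was not tested. Signals under 100 limit every fold to a bound.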
